A study of Sus scrofa with 23 samples.

Results

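The interferon-stimulated genes MX1, ISG15, RSAD2, IFIT3, OAS1, GBP1 and UBD, 7 of the 6765 genes with a named probe set, are described here across pig development. They were measured by all probe sets of the array whose only gene symbol in the platform annotation is one of these 7, which gave 12 of 24123 probe sets. MX1, ISG15, IFIT3, OAS1 and UBD had 1 probe set each, GBP1 had 3 and RSAD2 had 4. Of the 4 for RSAD2, 3 belong to the array's control type, which was left out of the tests, so that 9 member probe sets were tested among 23999.

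The samples were 23 total RNA extracts of offspring of German Landrace gilts, and every gilt had been on the gestational low protein diet (LP in the labels). The 5 fetal samples were taken on day 94 post conception (dpc). After birth, on days 1, 28 and 188 post natum (dpn), 6 samples were taken each time. The series holds no other diet, so the stages differ in age and no effect of the diet can be read from them. Offspring of 3 gilts were taken per stage and the labels do not name the dam, so some samples of a stage shared one and the p-values may be too small.

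Interferons are proteins that cells release when they sense viral or microbial nucleic acid, or, in the case of interferon gamma, that activated T and NK cells release. They bind receptors that signal through Janus kinases to STAT proteins and interferon regulatory factors, and these switch on interferon-stimulated genes. Many products of these genes act against viruses, and others increase antigen presentation or hold the response in check. MX1, ISG15, RSAD2, IFIT3 and OAS1 are typical targets of the type I interferons, while in human cells GBP1 and UBD respond strongly to interferon gamma.

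Each sample was labelled liver, whereas the title of the series names muscle. The summed signal of 12 skeletal muscle markers ran from 334242.5 to 915585 over the 23 samples, and that of 12 hepatocyte markers from 2071 to 38130, although signals of different probe sets are not strictly comparable. In every sample the muscle markers were far the brighter, so the samples were rich in muscle RNA and the label liver is not relied on. The hepatocyte sum varied widely between samples, and no result is assigned to a tissue. Median signals per array lay between 121 and 169, and the 2% trimmed mean was 500.1 to 500.2 on all arrays. Replicates 2, 4 and 5 of 1 dpn had GAPDH 5′ to 3′ ratios between 0.0868 and 0.148, while the lowest ratio elsewhere was 1.09. The actin ratios of these 3, at 0.817 to 1.01, did not stand apart from those of 94 dpc in the same way. Calls that involve 1 dpn are given with and without these 3 samples. Fits without them keep 3 samples of 1 dpn, replicates 1, 3 and 6, so a call lost there may also reflect the smaller number. In the 5′ to 3′ ratio of the control transcript Dap, 188 dpn (0.264 to 0.359) and 28 dpn (0.0511 to 0.0978) did not overlap. In the actin 5′ to 3′ ratio, 28 dpn (1.32 to 1.61) and 188 dpn (1.29 to 1.42) overlapped neither 94 dpc (0.820 to 1.1) nor 1 dpn (0.817 to 1.21). The highest GAPDH ratio of 1 dpn (1.133) was also just below the lowest of 94 dpc (1.141). Each pair of stages thus differed without overlap in at least 1 control ratio. For every comparison, what the control ratios reflect and the age of the animals cannot be told apart. Dap ratios also varied inside stages, from 0.0622 to 0.409 at 94 dpc and from 0.0657 to 0.361 at 1 dpn.

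All 7 genes had their highest mean at 28 dpn. This held for 9 of the 9 tested probe sets on the log2 scale, whereas 14.8% of all tested probe sets were highest at 28 dpn. For 7 of the 9, the lowest mean was at 94 dpc. Between 28 dpn and 94 dpc the signals of the 7 genes did not overlap in the brightest probe set of each, and the fold changes ran from 4.43 (IFIT3) to 23.7 (RSAD2). At 188 dpn the levels were low again, and no member passed the test between 188 dpn and 1 dpn. In RNA of whole tissue samples, fewer cells of a type and less RNA per cell cannot be told apart. Signals are deposited array intensities on a linear scale, and changes are differences of stage means of log2(signal + 16). The added 16 draws the changes of dim probe sets toward 0.

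**Figure D1:**
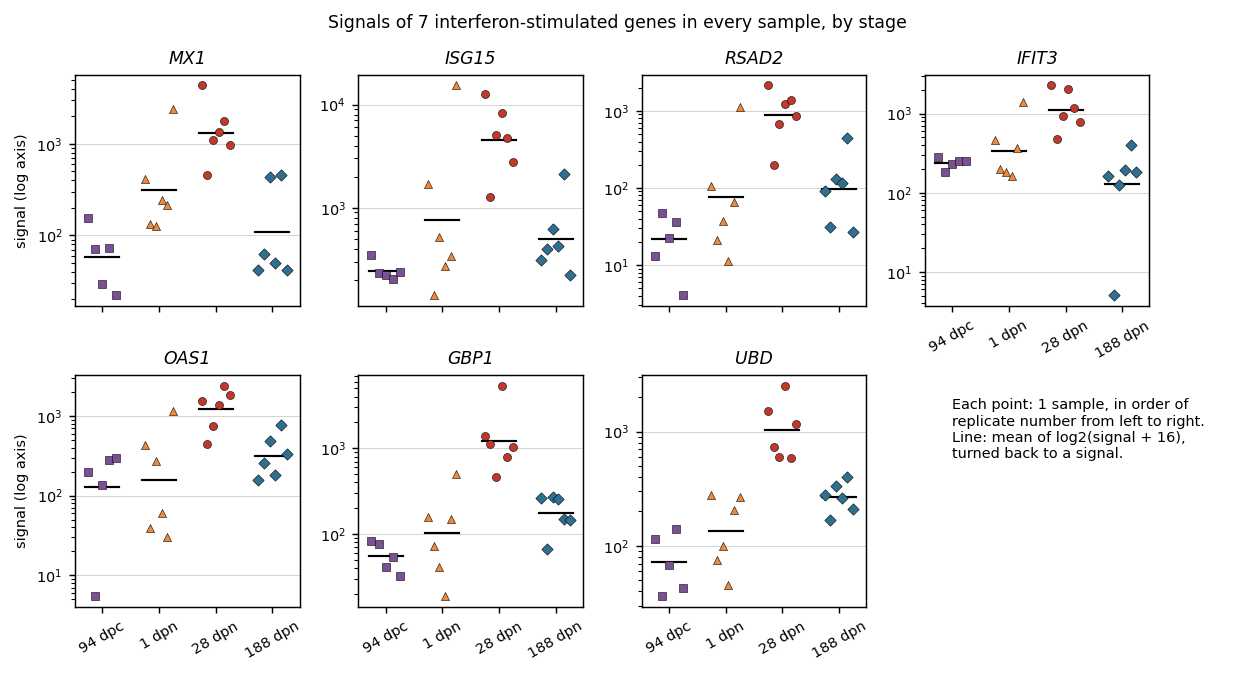
Signal of each of the 7 genes (brightest probe set) in each of the 23 samples, by stage on the horizontal axis and on a log axis vertically, with the mean of log2(signal + 16) turned back to a signal as a line. The 28 dpn samples are the highest group in every panel, and 1 sample of 1 dpn, replicate 6, reaches the 28 dpn range for MX1, ISG15, RSAD2, IFIT3, OAS1 and GBP1.

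MX1 encodes a dynamin-like GTPase that blocks influenza and other viruses. At 94 dpc its signals were 157, 71.5, 29.2, 73.6 and 22.2. At 1 dpn they ran from 125 to 2400.4 with a median of 231. At 28 dpn they ran from 461 to 4398 with a median of 1228, and at 188 dpn from 42.0 to 460.5 with a median of 56.9. Every 28 dpn sample thus lay above every sample of 94 dpc and of 188 dpn, while replicate 6 of 1 dpn lay above 5 of the 6 samples of 28 dpn. The order of mean levels, from low to high, was 94 dpc, 188 dpn, 1 dpn and 28 dpn. Of the neighbours in this order, 188 dpn and 94 dpc (adjusted p = 0.457, limma) and 188 dpn and 1 dpn (adjusted p = 0.13) did not differ beyond their spread.

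ISG15 encodes a ubiquitin-like protein that is joined to other proteins in infected cells and is also secreted. It had signals of 350, 235, 221, 202 and 241 at 94 dpc, a narrow range. Its signals at 1 dpn ran from 142 to 15436 with a median of 431, at 28 dpn from 1284 to 12766 with a median of 4872, and at 188 dpn from 221 to 2130.4 with a median of 414. The highest ISG15 signal of all 23 samples was therefore in a 1 dpn animal. The other 5 samples of 1 dpn had at most 1687, and 4 of those 5 lay below the whole 28 dpn range. Mean levels on the log2 scale followed the same order as those of MX1, and only 28 dpn and 1 dpn differed among its neighbours (adjusted p = 0.0276, limma).

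RSAD2 encodes viperin, an enzyme of the endoplasmic reticulum and lipid droplets that makes a chain-terminating nucleotide. Its signals in the tested probe set were 13.2, 47.9, 22.3, 35.7 and 4.04 at 94 dpc. They ran from 11.3 to 1108 with a median of 51.0 at 1 dpn, from 196 to 2159.6 with a median of 1044 at 28 dpn, and from 26.5 to 445 with a median of 104 at 188 dpn. The gene was dim in every sample of 94 dpc, and the 28 dpn samples overlapped the other postnatal stages through 1 high animal in each. Of the 3 RSAD2 probe sets of the control type, the one nearest the 3′ end of the transcript also separated 28 dpn (97.1 to 446) from 94 dpc (2.52 to 24.6). The middle one did so at lower signals, with 59.9 to 163 at 28 dpn and 3.83 to 55.6 at 94 dpc. The one nearest the 5′ end was dim throughout, with 16.4 to 135 at 28 dpn and 13.3 to 34.7 at 94 dpc, and the groups overlapped.

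IFIT3 encodes a tetratricopeptide repeat protein of the complex that recognises viral RNA ends. It had signals of 283, 185, 233, 251 and 254 at 94 dpc. At 1 dpn its signals ran from 161 to 1388 with a median of 285, at 28 dpn from 481 to 2300.3 with a median of 1050.0, and at 188 dpn from 5.06 to 402 with a median of 173. All 28 dpn signals lay above those of 94 dpc and 188 dpn. IFIT3 was the gene whose mean level was lowest at 188 dpn, with 178 ± 129 (SD, n = 6) at 188 dpn and 241 ± 36.3 (SD, n = 5) at 94 dpc, a difference that did not pass the test (adjusted p = 0.305, limma). Replicate 2 of 188 dpn, at 5.06, was far below the other 5.

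OAS1 encodes an enzyme that senses double-stranded RNA and makes oligoadenylates. Its signals at 94 dpc were 198, 5.46, 135, 276 and 299. They ran from 30.1 to 1149 with a median of 166 at 1 dpn, from 448 to 2397 with a median of 1459 at 28 dpn, and from 159 to 776 with a median of 292 at 188 dpn. Every 28 dpn signal exceeded every 94 dpc signal, while 2 of the 6 samples of 188 dpn overlapped the lower end of the 28 dpn range. OAS1 varied by 54.8-fold between the lowest and the highest sample of 94 dpc because of replicate 2, whereas ISG15 and IFIT3 varied by 1.73-fold and 1.53-fold there.

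GBP1 encodes a guanylate-binding protein, a large GTPase that coats intracellular bacteria and parasites. Its brightest probe set had signals of 82.1, 76.7, 41.7, 54.5 and 32.6 at 94 dpc. The signals ran from 19.0 to 508 with a median of 112 at 1 dpn, from 466 to 5351 with a median of 1073 at 28 dpn, and from 67.5 to 271 with a median of 202 at 188 dpn. Of the other samples, only replicate 6 of 1 dpn reached the 28 dpn range. The GBP1 probe set of middle brightness ran from 87.0 to 142 at 94 dpc, from 46.7 to 215 at 1 dpn, from 219.6 to 2078 at 28 dpn and from 59.8 to 226 at 188 dpn, so that 28 dpn overlapped with 188 dpn alone. The dimmest one ran low (1.75 to 248 over all samples) and passed the test in none of the 6 comparisons. Its change between 28 dpn and 94 dpc was 1.29 ± 0.57 (SE, adjusted p = 0.108), so the GBP1 probe sets differed in size and not in direction there.

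UBD encodes ubiquitin D, a ubiquitin-like modifier that directs proteins to the proteasome. It had signals of 115, 36.3, 68.2, 141 and 42.6 at 94 dpc. At 1 dpn they ran from 45.1 to 277 with a median of 152, at 28 dpn from 591 to 2517 with a median of 944, and at 188 dpn from 169 to 399.9 with a median of 269.7. UBD was the gene whose 28 dpn samples overlapped with no sample of any other stage. Its mean levels on the log2 scale went up in the order 94 dpc, 1 dpn, 188 dpn and 28 dpn, as did those of RSAD2, OAS1 and the brightest GBP1 probe set. For RSAD2 the mean signals of 1 dpn (225) and 188 dpn (140) stood in the opposite order. In UBD, 1 dpn did not differ from its neighbours 94 dpc (adjusted p = 0.197, limma) and 188 dpn (adjusted p = 0.107).

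At 28 dpn against 94 dpc, RSAD2, MX1, ISG15, the brightest GBP1 probe set, UBD and OAS1 had the largest of their changes over the 6 comparisons, while IFIT3 changed more between 188 dpn and 28 dpn. Of the 9 tested member probe sets, 8 were higher at 28 dpn with an adjusted p under 0.05 (limma, 6 samples against 5), while 8.87% of all tested probe sets were called higher in this comparison. Changes of the called members, as log2 ± SE, were 4.56 ± 0.76 for RSAD2 (adjusted p = 0.000102), 4.16 ± 0.71 for MX1 (adjusted p = 0.000144), 4.13 ± 0.83 for ISG15 (adjusted p = 0.00071) and 4.12 ± 0.57 for GBP1 (adjusted p = 1.24e-05). UBD changed by 3.56 ± 0.43 (adjusted p = 2.13e-06), OAS1 by 3.08 ± 0.76 (adjusted p = 0.00439) and IFIT3 by 2.15 ± 0.59 (adjusted p = 0.00935). The median change was 3.56 over the 9 members and -0.10 over all probe sets. Samples did not overlap for 8 of the 9, against 7.83% of all probe sets in this direction. Under every alternative run, 8 or 9 member probe sets were called.

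**Figure D2:**
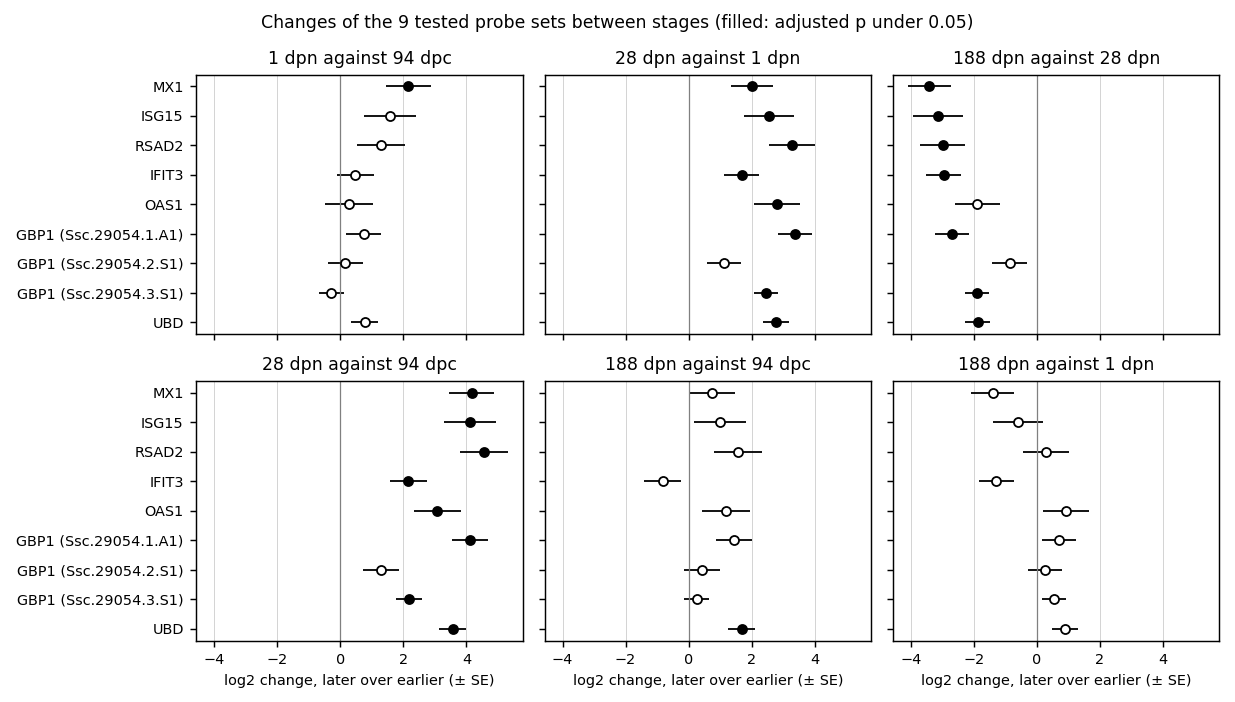
Change of the 9 tested member probe sets in the 6 comparisons, as log2 change of the later over the earlier stage (points) with its standard error (bars); filled points passed an adjusted p under 0.05. The 28 dpn against 94 dpc panel holds the largest single change, 4.56 for RSAD2, and the 188 dpn against 1 dpn panel holds no filled point.

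In the growing period, 188 dpn against 28 dpn, most of the members fell. At 188 dpn, 7 of the 9 member probe sets were called lower than at 28 dpn, against 9.15% of all tested probe sets called lower. The log2 changes (± SE) were -3.42 ± 0.68 for MX1 (adjusted p = 0.00125), -3.14 ± 0.79 for ISG15 (adjusted p = 0.00857), -2.99 ± 0.72 for RSAD2 (adjusted p = 0.00633) and -2.97 ± 0.56 for IFIT3 (adjusted p = 0.000774). GBP1 changed by -2.69 ± 0.54 in its brightest probe set (adjusted p = 0.00144) and UBD by -1.88 ± 0.41 (adjusted p = 0.00272). OAS1 had a change of -1.89 ± 0.72 that did not pass (adjusted p = 0.0866), with 365 ± 234 at 188 dpn and 1390.3 ± 715 at 28 dpn (SD, n = 6 each). It passed under 4 of the alternatives (adjusted p = 0.0113 to 0.0443). The samples of MX1, IFIT3, UBD and the brightest GBP1 probe set did not overlap, which is 4 of 9 members against 6.41% of all probe sets. The median change was -2.69 over the members and -0.03 over all probe sets. This comparison and the one before share the 28 dpn samples, so their sizes are not independent.

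In the suckling interval, 28 dpn against 1 dpn, 8 of the 9 member probe sets were called higher at 28 dpn, against 10.1% of all probe sets. GBP1 was higher by 3.39 ± 0.54 (adjusted p = 0.000132), RSAD2 by 3.27 ± 0.72 (adjusted p = 0.00265), OAS1 by 2.81 ± 0.72 (adjusted p = 0.00867) and UBD by 2.78 ± 0.41 (adjusted p = 5.09e-05). ISG15 was higher by 2.54 ± 0.79 (adjusted p = 0.0276), MX1 by 2.01 ± 0.68 (adjusted p = 0.0431) and IFIT3 by 1.68 ± 0.56 (adjusted p = 0.0406). Samples failed to overlap for 2 of the 9, UBD and the GBP1 probe set of middle brightness, against 4.14% of all probe sets. Without the 3 samples of 1 dpn with a low GAPDH ratio, 3 of the 9 were called, namely UBD and both brighter GBP1 probe sets, against 8.29% of all probe sets. Without them the change was 2.20 for RSAD2 (adjusted p = 0.0945, limma), 1.34 for MX1 (adjusted p = 0.353), 1.21 for OAS1 (adjusted p = 0.314), 1.15 for IFIT3 (adjusted p = 0.324) and 0.92 for ISG15 (adjusted p = 0.535). The ISG15, OAS1 and RSAD2 changes were each smaller by more than a log2 unit than with all samples. This setting keeps 3 samples of 1 dpn, and among them is replicate 6, the highest of its stage in 6 of the 7 genes. The 3 samples left out also had the lowest Dap ratios of 1 dpn (0.0657 to 0.0717). Their summed hepatocyte markers were the highest of the stage (16906 to 20568.5), and their summed macrophage markers, described below, the lowest (1419 to 2104). Whether the lost calls come from fewer samples, from replicate 6, from RNA quality or from these other differences was not tested. Leaving out 1 sample at a time gave 5 to 8 calls, with 5 called without replicate 2, 4 or 5 of 1 dpn or without replicate 1 or 4 of 28 dpn. UBD and the 2 brighter GBP1 probe sets were called in each of these settings, with an adjusted p of at most 0.00548.

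Around birth, 1 member passed. MX1 was higher at 1 dpn than at 94 dpc by 2.15 ± 0.71 on the log2 scale (adjusted p = 0.0279, limma), with 589.5 ± 893 at 1 dpn (SD, n = 6) and 70.7 ± 53.7 at 94 dpc (SD, n = 5). That is 1 of 9 member probe sets, against 8.08% of all probe sets called higher, a share near the background. The call was lost without replicate 6 of 1 dpn (1.58, adjusted p = 0.0734) or without replicate 3 or 5 of 94 dpc (adjusted p = 0.0731 and 0.0762). ISG15 had a change of 1.59 ± 0.83 (adjusted p = 0.171), and without the 3 samples of low GAPDH ratio it passed at 3.21 (adjusted p = 0.00824). That value rests on 3 samples of 1 dpn, replicate 6 among them, and without replicate 6 alone the change was 0.73 (adjusted p = 0.436). Without the 3 samples MX1 was called too (2.82, adjusted p = 0.0243), which made 2 of the 9, against 7.81% of all probe sets. With all samples the remaining changes lay between -0.29 and 1.29 and did not pass.

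Levels at 188 dpn and at the earlier stages before 28 dpn were mostly not told apart. UBD was the 1 member of 9 called between 188 dpn and 94 dpc, where it was higher by 1.68 ± 0.43 (adjusted p = 0.00311), with 276 ± 83.9 at 188 dpn (SD, n = 6) and 80.6 ± 45.7 at 94 dpc (SD, n = 5) and no overlap between the samples. In this comparison 13.3% of all probe sets were called higher, and 10.7% were higher without overlap. The brightest GBP1 probe set just missed the threshold with 1.43 ± 0.57 (adjusted p = 0.0524) and passed under 6 of the alternatives. Between 188 dpn and 1 dpn, limma called 0 of the 9, against 13.6% of all probe sets called higher and 15.6% called lower, and it also called 0 without the samples of low GAPDH ratio, where ISG15 came nearest (-2.22, adjusted p = 0.0558). Under the looser rule of an unadjusted p under 0.05 (limma), 3 of the 9 were counted, MX1 (-1.41 ± 0.68), IFIT3 (-1.29 ± 0.56) and UBD (0.90 ± 0.41). The share of all probe sets under that looser rule was not computed, so this count is not read as a result about the members. IFIT3 passed in 2 settings, without replicate 5 of 188 dpn (adjusted p = 0.0364) and without dim probe sets (adjusted p = 0.0498).

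**Figure D3:**
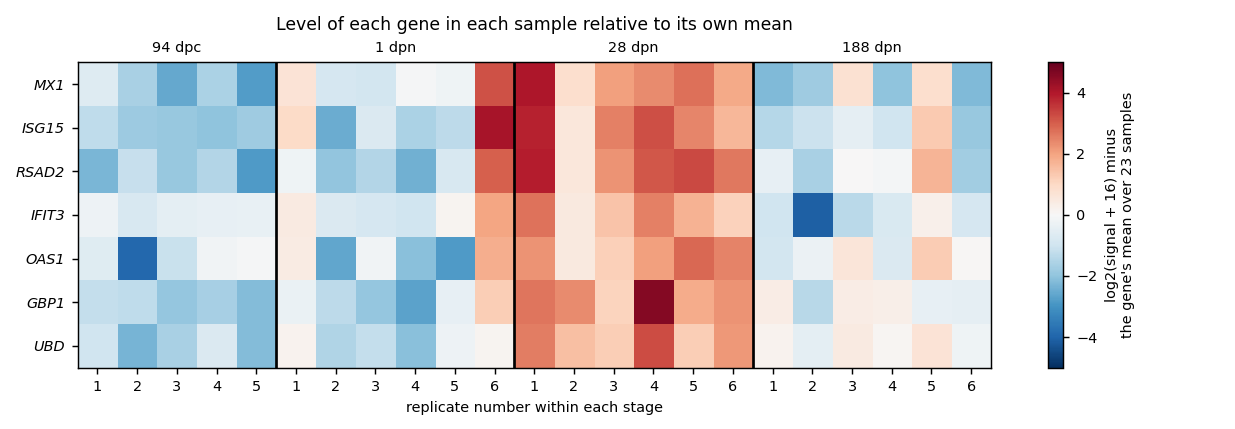
Level of each gene (rows, brightest probe set) in each of the 23 samples (columns, by stage and replicate) as log2(signal + 16) minus the gene's mean over all samples. The 28 dpn block is above the mean throughout, replicate 6 of 1 dpn resembles it in every row but UBD, and replicates 2 and 4 of 1 dpn are below the mean in most rows.

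Within a stage, single animals were high or low in most of the genes together. Replicate 6 of 1 dpn was the highest of its stage in 6 of the 7 genes. Its signal was 10.4 times the next highest for RSAD2, 9.15 times for ISG15 and 5.77 times for MX1. UBD was the exception, where replicate 1 had 277 and replicate 6 had 270.0. At 188 dpn, replicate 5 was the highest in 6 of the 7 genes, with 3.43 times the next highest signal for RSAD2, 3.42 times for ISG15 and 1.06 times for MX1, where replicate 3 was nearly as high. GBP1 was the exception at 188 dpn, with replicate 3 the highest.

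At 28 dpn the 7 genes did not peak in the same animal. Replicate 1 was the highest for MX1, ISG15, RSAD2 and IFIT3, replicate 5 for OAS1, and replicate 4 for GBP1 and UBD. The GBP1 signal of replicate 4 was 3.80 times the next highest and its UBD signal 1.66 times. Replicate 2 was the lowest of the 28 dpn samples in 5 of the 7 genes, while GBP1 was lowest in replicate 3 and UBD in replicate 5.

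Correlations after each stage mean was subtracted are descriptions over 23 samples that share arrays and RNA between genes. Among MX1, ISG15, RSAD2 and IFIT3, Pearson's r lay between 0.608 and 0.890 in the 6 pairs. GBP1 and UBD had r = 0.787 with each other, and 0.253 to 0.663 with the other 5 genes. IFIT3 was nearer to GBP1 (0.663) and UBD (0.641) than to MX1 (0.608), so the ranges of r overlapped. OAS1 had 0.480 to 0.704 with the 4 genes named first. Spearman's rho was 0.478 to 0.805 among the 4 genes, 0.775 for GBP1 and UBD, and 0.131 to 0.677 between GBP1 or UBD and the other 5. Without replicate 6 of 1 dpn, chosen after seeing the data, r was 0.466 to 0.791 among the 4 genes, 0.774 for GBP1 and UBD, and -0.022 to 0.591 between GBP1 or UBD and the other 5.

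The 8 genes whose pattern within stages was most like the mean of the 7 were taken from 4979 candidates, of which 90% had r between -0.549 and 0.581. They were ISG12(A) (r = 0.923), LOC733579 (0.876), IFI44L (0.863), IRF9 (0.846), USP18 (0.836), MOV10 (0.829), PARP12 (0.827) and TAP1 (0.824), each over 23 samples. Without replicate 6 of 1 dpn their r was 0.697 to 0.873. ISG12(A) had 8389 ± 4944 at 28 dpn and 744 ± 124 at 94 dpc, a change of 3.19 (adjusted p = 0.000965). PARP12 had 1106 ± 511 at 28 dpn and 333 ± 9.35 at 94 dpc, a change of 1.52 (adjusted p = 0.00864). All 8 were called lower at 188 dpn than at 28 dpn, with changes from -3.30 (ISG12(A)) to -1.25 (MOV10), against 9.15% of all probe sets called lower. Likeness within stages did not require the stage pattern of the 7. MOV10 had 348 ± 132 at 28 dpn and 292 ± 60.3 at 94 dpc and did not pass (adjusted p = 0.726).

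The other genes of the interferon system followed the members in part. Interferon ligands and receptors, 7 of 11 measured, included none called higher at 28 dpn than at 94 dpc, against 8.87% of all probe sets. IFNAR2, a receptor chain for type I interferon, had 313 ± 79.2 at 28 dpn and 534 ± 60.0 at 94 dpc, a change of -0.77 (adjusted p = 0.00365). IFNGR1, the ligand-binding chain of the interferon gamma receptor, had 453 ± 74.7 at 28 dpn and 656 ± 141 at 94 dpc (-0.51, adjusted p = 0.0401), a call lost under 10 of 19 alternatives. In this direction 14.7% of all probe sets were called. Receptor levels were already lower at 1 dpn than at 94 dpc, with log2 changes of -1.54 for IFNGR1 (adjusted p = 1.45e-06), -1.41 for IFNAR1 (adjusted p = 1.83e-05) and -0.60 for IFNAR2 (adjusted p = 0.0196), where 17.9% of all probe sets were called lower. Without the samples of low GAPDH ratio, IFNAR2 did not pass there (-0.57, adjusted p = 0.0567). IFNGR1 (1.02, adjusted p = 0.000204) and IFNAR1 (0.87, adjusted p = 0.00285) were higher at 28 dpn than at 1 dpn, and without those samples IFNAR1 did not pass (0.65, adjusted p = 0.0518). At 188 dpn IFNAR2 was lower than at 28 dpn (-0.81, adjusted p = 0.00295). Of the ligands, IFNB1 had 13.2 ± 13.7 at 28 dpn and 12.2 ± 21.0 at 94 dpc, and IFNG, the interferon gamma gene, had 53.7 ± 24.7 at 28 dpn and 19.1 ± 25.2 at 94 dpc (1.12, adjusted p = 0.0514). IFNA1, IFNB1 and IFNG passed in none of the comparisons with 28 dpn.

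Among signalling proteins and transcription factors, 12 of 15 were measured and 3 were higher at 28 dpn than at 94 dpc, against 8.87% of all probe sets. These were IRF7 (1.85, adjusted p = 0.034), which amplifies type I interferon production, IRF1 (1.01, adjusted p = 0.00153), a factor downstream of interferon gamma, and IRF9 (0.97, adjusted p = 0.0249), the DNA-binding part of the complex with STAT2. The kinase TYK2 (-0.81, adjusted p = 0.00083) and IRF3 (-0.72, adjusted p = 0.0273) were lower, 2 of 12 against 14.7% of all probe sets, and the IRF3 call was lost under 7 of 19 alternatives. At 188 dpn, 4 of the 12 were lower than at 28 dpn, namely IRF1 (-1.71, adjusted p = 8.69e-06), IRF9 (-1.48, adjusted p = 0.00123), STAT2 (-1.29, adjusted p = 0.000541) and IRF2 (-0.65, adjusted p = 0.0479). The IRF2 call was lost under 12 of 20 alternatives, and 9.15% of all probe sets were called lower in this comparison. Against 1 dpn, IRF7 (1.96, adjusted p = 0.0249), IRF8 (1.27, adjusted p = 0.00232) and IRF1 (1.07, adjusted p = 0.00092) were higher at 28 dpn, and IRF7 did not pass without the samples of low GAPDH ratio (0.92, adjusted p = 0.424). Of all probe sets, 10.1% were called higher at 28 dpn than at 1 dpn. The 3 calls between 28 dpn and 94 dpc dropped to 1 without replicate 2 or 4 of 94 dpc or replicate 4 of 28 dpn. Among them, the IRF7 call was lost under 7 of 18 alternatives.

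Nucleic acid sensors and adaptors were measured for 8 of 18. DDX58, the RNA sensor also called RIG-I, had 599 ± 318 at 28 dpn and 65.0 ± 24.7 at 94 dpc (2.79, adjusted p = 3.63e-05). ZBP1, a sensor of Z-form nucleic acid, had 396 ± 258 at 28 dpn and 91.8 ± 34.9 at 94 dpc (1.72, adjusted p = 0.0337), a call lost under 8 of 18 alternatives. Both were lower at 188 dpn than at 28 dpn, with changes of -2.96 for ZBP1 (adjusted p = 0.000721) and -2.09 for DDX58 (adjusted p = 0.00094). The adaptor MAVS (0.77, adjusted p = 0.0425) and the kinase TBK1 (0.59, adjusted p = 0.0402) were higher at 188 dpn than at 28 dpn, where 4.66% of all probe sets were called higher. Both of these calls were lost without any 1 of 8 samples, replicates 1, 3, 4 and 6 of 28 dpn and replicates 1 to 4 of 188 dpn. DDX58 (2.33, adjusted p = 0.00027) and ZBP1 (2.02, adjusted p = 0.0132) were also higher at 28 dpn than at 1 dpn. Without the samples of low GAPDH ratio DDX58 passed (1.93, adjusted p = 0.0145) and ZBP1 did not (1.16, adjusted p = 0.259).

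Of the negative regulators, 7 of 9 were measured. At 28 dpn against 94 dpc, 1 of the 7 was called higher and 2 lower, against 8.87% and 14.7% of all probe sets. At 188 dpn, 1 was called lower than at 28 dpn, against 9.15% of all probe sets. These small counts are not read as a result about the list. USP18, the protease that removes ISG15 from proteins and blocks the type I receptor, had 1752 ± 1046 at 28 dpn and 231 ± 46.4 at 94 dpc (2.62, adjusted p = 0.000309), and it was lower at 188 dpn than at 28 dpn (-2.16, adjusted p = 0.00227). SOCS3, an inhibitor of cytokine receptors, was dim, with 8.53 ± 2.78 at 28 dpn and 75.6 ± 34.3 at 94 dpc (-1.78, adjusted p = 0.000193). PIAS1, a negative regulator of interferon signalling, was also lower at 28 dpn than at 94 dpc (-0.65, adjusted p = 0.0178), a call lost under 3 of 19 alternatives. USP18 (2.23, adjusted p = 0.00151) and ISG20 (1.58, adjusted p = 0.032) were higher at 28 dpn than at 1 dpn, 2 of 7 against 10.1% of all probe sets. Neither passed without the samples of low GAPDH ratio, with 1.55 for USP18 (adjusted p = 0.0667) and 1.05 for ISG20 (adjusted p = 0.304), and the ISG20 call was lost under 8 of 20 alternatives. ISG20 is an antiviral exonuclease and not an inhibitor of the signal, although it stood in this list.

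Of 53 other interferon-stimulated genes, 19 were measured, and 13 of the 19 were higher at 28 dpn than at 94 dpc with none lower. In that comparison 8.87% of all probe sets were called higher. The largest changes were in XAF1, a regulator of apoptosis (2.86, adjusted p = 0.000596), IFIT1, which binds viral RNA (2.50, adjusted p = 0.00121), IFI44L (2.38, adjusted p = 0.000199) and CXCL9, a chemokine for T cells (2.16, adjusted p = 0.000547). The median change of the 19 was 1.30, and that of all probe sets -0.10. At 188 dpn, 12 of the 19 were lower than at 28 dpn and none higher, led by XAF1 (-2.52, adjusted p = 0.00226), IFI44L (-2.40, adjusted p = 0.000238), CXCL9 (-2.21, adjusted p = 0.000539) and IFI30 (-1.70, adjusted p = 0.000591), a lysosomal thiol reductase. That count was 7 without replicate 1 of 28 dpn, and 9.15% of all probe sets were called lower with all samples. Between 28 dpn and 1 dpn, 8 of the 19 were higher, led by IFI44L (2.43, adjusted p = 0.000172), XAF1 (2.41, adjusted p = 0.00285), EIF2AK2 (2.40, adjusted p = 0.00024), the RNA-dependent kinase PKR, and CXCL9 (2.19, adjusted p = 0.000508), and 5 without the samples of low GAPDH ratio, where XAF1 did not pass (1.63, adjusted p = 0.0656). Between 28 dpn and 1 dpn 10.1% of all probe sets were called higher, and 8.29% without the samples of low GAPDH ratio. In each comparison without 28 dpn 1 gene of the 19 was called, a share below the 8.08%, 13.3% and 15.6% of all probe sets called in the same directions. MX2, a paralog of MX1, was higher at 1 dpn than at 94 dpc (log2 difference 1.02, adjusted p = 0.0485), PML, a scaffold of nuclear bodies, was higher at 188 dpn than at 94 dpc (1.105, adjusted p = 0.00843), and WARS, a tryptophan-tRNA ligase, was lower at 188 dpn than at 1 dpn (-0.85, adjusted p = 0.00951). The MX2 call was lost under 14 of 20 alternatives, and without the samples of low GAPDH ratio neither MX2 (1.06, adjusted p = 0.12) nor WARS (-0.45, adjusted p = 0.243) passed.

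Immunoproteasome and peptide-loading genes were measured for 7 of 10. TAP1, which carries peptides into the endoplasmic reticulum, had 1723 ± 1053 at 28 dpn and 405 ± 13.4 at 94 dpc (1.86, adjusted p = 0.000909). PSMB8, an immunoproteasome subunit (1.62, adjusted p = 0.0119), and TAPBP, the tapasin that holds TAP to class I molecules (0.99, adjusted p = 0.00434), were also higher, which makes 3 of 7. At 188 dpn, 4 of the 7 were lower than at 28 dpn, namely TAP1 (-2.05, adjusted p = 0.000448), PSMB8 (-1.49, adjusted p = 0.0236), PSME2 (-1.22, adjusted p = 0.0114) and TAPBP (-0.96, adjusted p = 0.00628). Between 28 dpn and 1 dpn, 5 were higher, with PSMB8 (1.70, adjusted p = 0.00867), TAP1 (1.52, adjusted p = 0.00533), PSME1 (1.30, adjusted p = 0.00683) and PSME2 (1.27, adjusted p = 0.00755) the largest. None of these 5 passed without the samples of low GAPDH ratio. Of all probe sets, 8.87% were called higher at 28 dpn than at 94 dpc, and 9.15% lower at 188 dpn than at 28 dpn. Between 28 dpn and 1 dpn 10.1% were called higher, and 8.29% without the samples of low GAPDH ratio. B2M, the light chain of class I molecules, was lower at 28 dpn than at 1 dpn (-0.38, adjusted p = 0.0492), where 7.03% of all probe sets were called lower, a call lost under 13 alternatives.

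**Figure D4:**
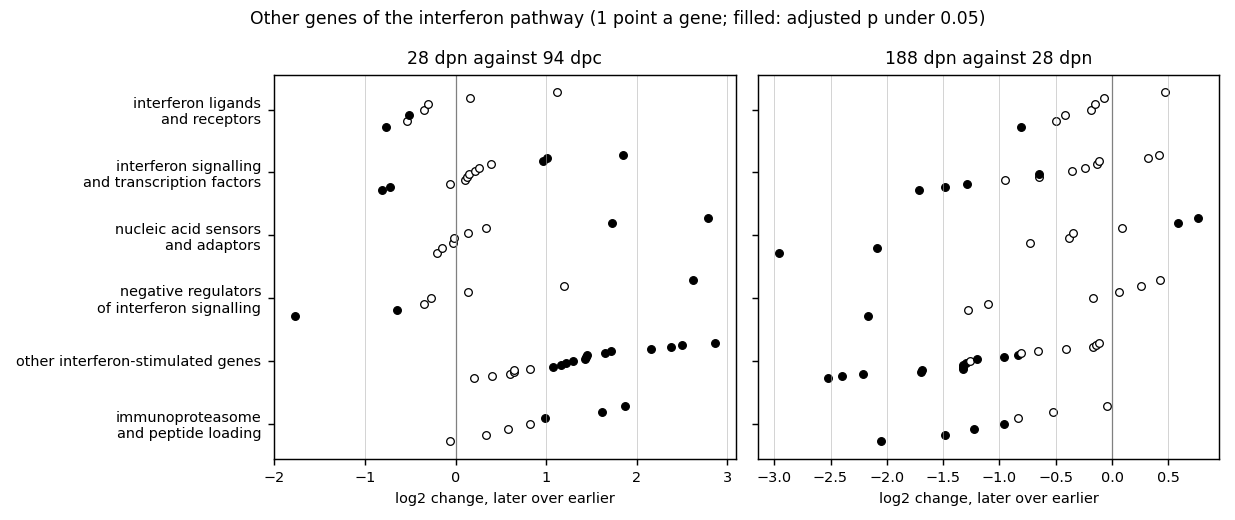
Log2 change of each measured gene of the 6 lists of the interferon system (1 point per gene, filled where the adjusted p was under 0.05), for 28 dpn against 94 dpc on the left and 188 dpn against 28 dpn on the right. In the list of other interferon-stimulated genes 13 of 19 are filled on the left, all above 0, and 12 of 19 on the right, all below 0, whereas ligands and receptors have no filled point above 0 in either panel. Of all probe sets, 8.87% were called higher in the left comparison and 9.15% lower in the right one.

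Summed markers of macrophages and of leukocytes in general were highest at 28 dpn, as the members were. For macrophages and monocytes, 10 of 15 markers were measured, and their signals summed to between 3589.5 and 4769 at 94 dpc, between 1419 and 5165 at 1 dpn, between 5646 and 16908 at 28 dpn, and between 1984 and 3673 at 188 dpn. The 28 dpn samples were above all others. Of the 10 markers, 5 were higher at 28 dpn than at 94 dpc, 6 were higher at 28 dpn than at 1 dpn (3 without the samples of low GAPDH ratio), and 5 were lower at 188 dpn than at 28 dpn. Of all probe sets, 8.87%, 10.1% (8.29% without those samples) and 9.15% were called in these directions. C1QC, a complement subunit made by macrophages, averaged 1808 in the fetuses, then 1168 at 1 dpn, 5079.5 at 28 dpn and 919 at 188 dpn, while CD163, the haemoglobin scavenger receptor, averaged 322, 426, 365 and 234 in the same order. None of the 10 was at 0 in any sample, but signals ran as low as 2.37 at 1 dpn. Without detection calls, such values cannot be told from background. After stage means were subtracted, the summed macrophage signal and the mean of the 7 genes had r = 0.722 over 23 samples, which share their arrays. The sum is of raw signals, so it follows the brightest markers most. At 28 dpn these were C1QC and FCGR3A, with means of 5079.5 and 2075.6.

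General leukocyte markers, 6 of 8 measured, summed to between 1078 and 1645 at 94 dpc, between 769 and 1567 at 1 dpn, between 2093 and 4329 at 28 dpn, and between 1144 and 1351 at 188 dpn. For 12 of 20 T and NK cell markers it was 434 to 626, 405 to 762, 814 to 2645 and 548 to 982 in the same order of stages. Of the 12, 2 were called higher at 28 dpn than at 94 dpc, 3 at 28 dpn than at 1 dpn (2 without the samples of low GAPDH ratio), and 2 lower at 188 dpn than at 28 dpn. The shares of all probe sets were 8.87%, 10.1% (8.29% without those samples) and 9.15%. CCL5, a chemokine of T and NK cells, averaged 46.0, 26.5, 647.6 and 139 over the stages, whereas CD4, the T helper coreceptor, averaged 26.6, 20.0, 6.60 and 31.7. CCL5 was the brightest of the 12 at 28 dpn, so the raw sum of T and NK cell markers follows it most there. Replicate 4 of 28 dpn, the highest in GBP1 and UBD, had the highest sum in all 3 lists. Replicate 1 of 28 dpn, the highest in MX1, ISG15, RSAD2 and IFIT3, had a macrophage sum of 7694, below the stage median of 8982. The same sample stood apart in the hepatocyte markers, with a sum of 32199.6, while the next highest of 28 dpn was 3987 in replicate 3. Replicate 6 of 1 dpn had 4160 for macrophages, 797 for general leukocytes and 405 for T and NK cells, the last being the lowest of all 23 samples. Within stages, r with the mean of the 7 genes was 0.250 for general leukocytes, 0.153 for T and NK cells, 0.475 for endothelial cells, 0.431 for plasmacytoid dendritic cells, 0.339 for skeletal muscle, 0.099 for hepatocytes and 0.001 for B and plasma cells. All 8 endothelial markers were measured, and they summed to between 9629 and 16336.5 at 94 dpc, 3743 and 5945 at 1 dpn, 6789 and 9810.3 at 28 dpn, and 3076 and 4525 at 188 dpn. Of the 8, 5 were higher at 28 dpn than at 1 dpn (3 without the samples of low GAPDH ratio) and 5 were lower at 188 dpn than at 28 dpn, but 3 were lower and 0 higher at 28 dpn than at 94 dpc. In the last comparison 14.7% of all probe sets were called lower. For B and plasma cells 2 of 10 markers were measured, with sums of 73.2 to 135 at 94 dpc, 201 to 718 at 1 dpn, 97.1 to 304 at 28 dpn and 153 to 227 at 188 dpn, and 0 of the 2 were called between 28 dpn and 1 dpn or between 188 dpn and 28 dpn. Of 5 markers of plasmacytoid dendritic cells, a main source of type I interferon, TCF4 and SPIB were measured and were dim, with a summed signal of 25.5 to 157 and 0 calls by limma in the 6 comparisons. The GAPDH ratio had r = 0.517 with the mean of the 7 genes. The part of these cells and of RNA quality in the results was not tested.

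**Figure D5:**
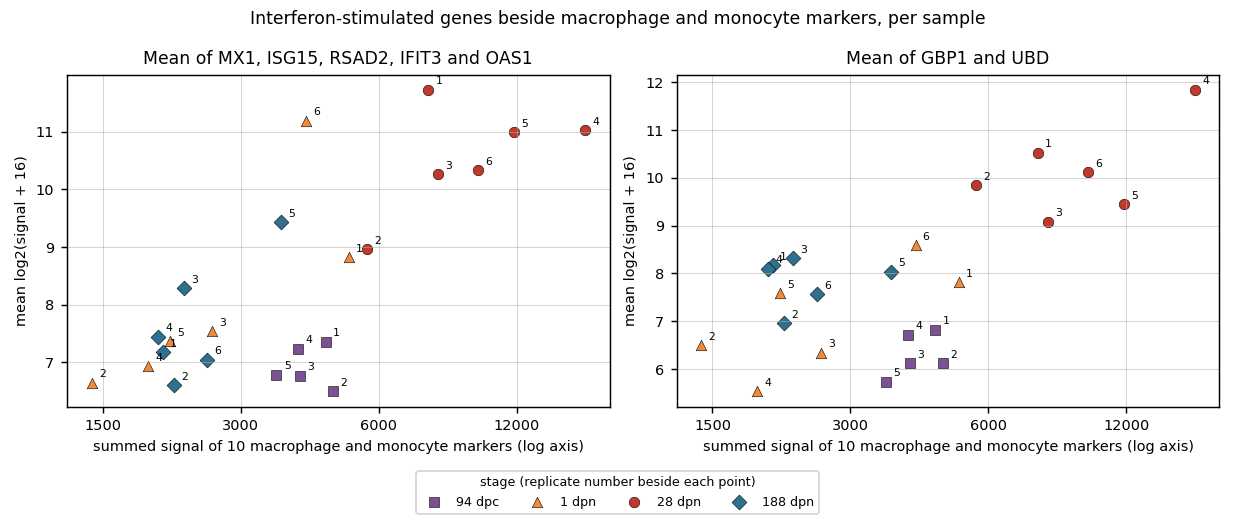
Mean log2(signal + 16) of MX1, ISG15, RSAD2, IFIT3 and OAS1 (left) and of GBP1 and UBD (right) against the summed signal of 10 macrophage and monocyte markers on a log axis, with 1 point per sample, replicate numbers beside the points and stages by colour and shape. The 28 dpn samples have the highest marker sums (5646 to 16908), replicate 4 of 28 dpn is at the top right for GBP1 and UBD, and replicate 6 of 1 dpn is high on the left at a sum of 4160.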

How the data were processed

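The table deposited by the authors holds linear intensity signals of 24123 probe sets. Per the submitters' processing notes, GCOS 1.1.1 was among the tools. How probes were summarised, how background was corrected, the genome build and detection calls are not given in the sources read. Per the labels' protocols, biotin-labelled cRNA was made from 0.5 ug of total RNA. The 2% trimmed mean of 500.1 to 500.2 on each array shows scaling to 1 target, so no further normalization was applied. No pair of arrays held identical values (0 pairs). Members were matched by symbol in the platform annotation, where 10099 probe sets have 1 symbol, 198 several and 13826 none, and all 12 members' Entrez identifiers were found in the RefSeq gene table. Sequences of these genes and probes are not given here.

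Values were taken as log2(signal + 16). The 124 control probe sets were left out. All 23 arrays entered 1 model with a mean for each stage in limma 3.58.1 (lmFit, eBayes; R 4.3.3), with two-sided tests and Benjamini-Hochberg adjustment over 23999 probe sets, called at an adjusted p under 0.05. Every adjusted p in the text is from this model unless a setting is named. Tables were read with pandas 2.3.3 and figures drawn with matplotlib 3.10.9 in Python 3.11.15. The stages came from the labels, and replicate numbers, in accession order, are names and pair nothing. Nothing in the labels marks a batch, and precision is limited by the number of arrays. Lists use 1 probe set per gene, that with the highest mean. The text names all members, up to 4 called genes of a list per comparison with the largest change, and the 8 genes most alike within stages. Genes of a list are given for the comparisons with 28 dpn, and elsewhere where they bear on a member. C1QC, FCGR3A, CD163, CCL5, CD4, TCF4, SPIB, IFNA1, IFNB1 and IFNG were named outside that rule, after their values were seen. The members, lists, rule and alternatives were chosen with earlier results of these data known, while leaving out replicate 6 of 1 dpn from the correlations, and the alternatives for lists and markers, were added after seeing the data.

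On simulated data of 23999 probe sets for 28 dpn against 94 dpc, 36 of 100 planted log2 changes of 1 and 82 of 100 of 2 were recovered, with 9 false calls. The same numbers were 29, 88 and 8 for 188 dpn against 1 dpn. In the comparison of 188 dpn with 28 dpn, 44 and 88 were recovered with 17 false calls. The simulated noise was independent between samples, without shared dams or outlying animals, and only the planted probe sets changed. The real data gave 5658 calls for 28 dpn against 94 dpc. These numbers are therefore not the power or the error rate of the reported calls.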

Additional observations from a re-analysis of the deposited data

Results flagged for a closer look

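In 16 of the 48 combinations of a member probe set and a stage, 1 sample stood apart from the others of its stage by Dixon's criterion on the signals, which flags about 1 in 20 by chance. On the log2 scale 2 of the 16 remained, the RSAD2 control-type probe sets of the 3′ end in replicate 4 of 94 dpc (24.6) and of the 5′ end in replicate 1 of 28 dpn (135), both dim. Only these 16 were checked on the log2 scale, so samples that stand apart on that scale alone were not counted. Low signals can be missed in this way, such as 5.06 for IFIT3 in replicate 2 of 188 dpn and 5.46 for OAS1 in replicate 2 of 94 dpc.

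Replicate 6 of 1 dpn stood apart in 8 probe sets, with signals of 2400.4 for MX1, 15436 for ISG15, 1108 and 182 for RSAD2 (tested and 3′ control-type probe set), 1388 for IFIT3, 1149 for OAS1, and 508 and 215 for GBP1. The probe sets share this animal and its array, so they are not separate flags. Replicate 4 of 28 dpn stood apart in GBP1 with 5351 and 2078. Replicate 1 of 28 dpn did so in MX1 with 4398, replicate 5 of 188 dpn in ISG15 with 2130.4 and RSAD2 with 445, and replicate 1 of 94 dpc in ISG15 with 350.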

How the results depend on the processing

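The calls of 28 dpn against 94 dpc (8 to 9 of 9 member probe sets) and of 188 dpn against 28 dpn (7 to 8) were stable under every alternative run. For 28 dpn against 1 dpn, 8 were called, 3 without the samples of low GAPDH ratio and 5 to 8 with 1 sample left out. There MX1 and IFIT3 also lost the call under quantile normalization, centring, pseudocount 1 and eBayes with trend (adjusted p = 0.0503 to 0.114), and MX1 and ISG15 with only the stages compared (0.0642 and 0.0965). For 1 dpn against 94 dpc, 1 was called, 2 without the samples of low GAPDH ratio and 0 to 1 with 1 left out. For 188 dpn against 94 dpc, 1 was called, 2 under quantile normalization, centring on the median, array weights or without dim probe sets, 3 with only the stages compared, and 1 to 2 with 1 left out (2 without replicate 2 of 188 dpn). For 188 dpn against 1 dpn, 0 were called, 1 without dim probe sets, where fewer probe sets are tested, and 0 to 1 with 1 left out. Of 1074 refitted changes of single members, 1004 kept direction and side of the threshold, 40 lost the call, 16 gained it and 14 changed sign, none of which was called. Without the samples of low GAPDH ratio, 188 dpn against 1 dpn changed sign for RSAD2 (-0.80), OAS1 (-0.68) and the dimmest GBP1 probe set (-0.30). With 1 sample left out, 188 dpn against 1 dpn ran from -1.06 to 0.27 for ISG15, -0.13 to 1.01 for RSAD2 and -0.041 to 0.53 for that GBP1 probe set, and 1 dpn against 94 dpc from -0.42 to 0.66 for OAS1 and -0.20 to 0.46 for that GBP1 probe set. The cause was not tested. Scaling moved the median change of all probe sets, from -0.11 (main) to 0.17 (centring) for 1 dpn against 94 dpc, from -0.10 to 0.10 for 28 dpn against 94 dpc and from -0.08 to 0.22 for 188 dpn against 94 dpc. The share of calls that were higher was 31.2% (main), 47.3% (quantile) and 59.4% (centring) for 1 dpn against 94 dpc, 37.6%, 50.2% and 59.1% for 28 dpn against 94 dpc, 36.3%, 48.8% and 56.9% for 188 dpn against 94 dpc, and 33.7%, 42.5% and 46.6% for 188 dpn against 28 dpn. No paired analysis was possible because replicate numbers follow accession order and the labels name no dam. Without detection calls, dim signals such as SOCS3 or IFNB1 cannot be told from background.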
